A study of Oryctolagus cuniculus with 4 samples.

Results

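The 6 genes described here encode proteins of the contractile apparatus of smooth muscle cells and of myofibroblasts, the contractile fibroblasts of connective tissue. MYH11, ACTA2 and CALD1 were set beside DES, TPM1 and TPM2, which skeletal muscle fibres also express. The members were fixed by name, and every probe annotated with a RefSeq transcript of one of them was taken. This gave 13 of the 43603 probes of the array and 6 of the 1489 genes that could be named. MYH11 (NM_001082308), ACTA2 (NM_001101682), CALD1 (NM_001082256) and TPM2 (NM_001105686) had 1 probe each, DES (NM_001171481) had 2 and TPM1 (NM_001105688) had 7.

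RNA came from the ligamentum flavum, the elastic ligament between neighbouring vertebral arches, of male rabbits (Oryctolagus cuniculus) aged 34 weeks. The model combined removal of muscle at L3/4 with instrumented posterolateral fusion of L2/3 and L4/5, which left L3/4 as a mobile level of intervertebral stress concentration (ISC). The samples, all labelled 16 weeks after surgery, fall into 4 groups. These are ISC ligament from L3/4 with its control, called the L3/4 control, and ligament of the fused L2/3 and L4/5 levels with its control, called the L2/3-L4/5 control. Agilent arrays with a single colour were used, 1 for each group. All 4 samples carry the same treatment text, so whether the control animals were operated on, and whether RNA of several animals or of both fused levels was pooled, is not given in the sources used here. With 1 array per group no difference below has a replicate error or a p-value, and precision is limited by how few arrays there are. The 2 surgical interventions also cannot be told apart from stress at the ISC level or from relief of movement at the fused levels.

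In smooth muscle, force comes from a myosin motor, whose heavy chain is encoded by MYH11, pulling on actin filaments that contain ACTA2. CALD1 (caldesmon) and the tropomyosins TPM1 and TPM2 lie along the actin filament and regulate the access of myosin, and DES (desmin) forms the intermediate filaments that link contractile units. In a ligament such transcripts can come from the walls of blood vessels, from pericytes and from activated fibroblasts, and ACTA2 is the usual marker of myofibroblasts. In a sample of bulk tissue, fewer cells of a type and less RNA per cell cannot be told apart.

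Levels are given as log2 of the processed spot signal minus log2 of the 75th percentile of the array, so that a level of 0 stands at that percentile. Well above background were 67.9% of probes at the ISC level, 59.6% in the L3/4 control, and 65.0% and 61.1% on the fused array and its control. Of the 13 probes of the 6 genes, 12 were well above background on all 4 arrays. The exception was the dimmer probe of DES, which was so on 1 array. The scanner software's own error of the spots came to 0.20 to 0.29 on a log2 ratio of spots well above background. That error covers the spot and not the animal.

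MYH11, the smooth muscle myosin heavy chain, had a level of 2.79 at the ISC level, against 4.97 in the L3/4 control. It had a level of 3.63 at the fused levels, against 3.70 in the L2/3-L4/5 control. The ISC level was thus the lowest of the 4 arrays and the L3/4 control the highest, while the fused levels and their control differed by less than the scanner error. The log2 ratio of the ISC level to the L3/4 control was −2.19, and 0.991% of the 13729 features measured on both arrays had a ratio as low. Against the other control, which is not the anatomical match, the ratio was −0.92 and 6.15% of features were as low. The direction was therefore the same against either control, and the size was not. The fused levels were at −0.07 to their own control and at −1.34 to the L3/4 control.

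ACTA2, smooth muscle alpha-actin, had the same lowest and highest arrays as MYH11, on a smaller scale. Its level was 2.49 at the ISC level, against 3.54 in the L3/4 control, and it was 3.14 at the fused levels, against 2.92 in the L2/3-L4/5 control. The fused array lay between the controls. The log2 ratio was −1.05 at the ISC level and 0.23 at the fused levels, where the scanner error is 0.20. The ratio at the ISC level lies near the 2-fold line and was −0.92 with the authors' scaling, −0.89 with quantile normalization, −0.86 with cyclic loess and −0.60 with normexp background correction. Against the L2/3-L4/5 control it was −0.42, a ratio that 21.4% of features matched or undercut.

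CALD1, caldesmon, had the smallest range of the 6 genes over the 4 arrays, 0.97 on the log2 scale. Its level was 3.77 at the ISC level, against 4.46 in the L3/4 control, and it was 4.04 at the fused levels, against 3.49 in the L2/3-L4/5 control. Here the ISC level lay between the controls and was not the lowest array. The log2 ratio was −0.69 to the matched control and 0.28 to the other control, so its direction turned with the choice of control. To the matched control it was −0.43 with quantile normalization and −0.27 with normexp. At the fused levels the ratio was 0.55 to the matched control and −0.42 to the L3/4 control, where it turned as well.

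TPM2, beta-tropomyosin, was the third gene past 2-fold at the ISC level. Its level was −0.62 at the ISC level, against 0.53 in the L3/4 control, and it was −0.54 at the fused levels, against 0.28 in the L2/3-L4/5 control. Both surgical arrays lay below both control arrays, which of the other genes held for MYH11 and TPM1. For MYH11 the order is not settled, since the fused array was at −0.07 to its control, within the scanner error, and at 0.002 with normexp. The log2 ratio was −1.16 at the ISC level, and −0.91 to the other control. At the fused levels it was −0.82 to the matched control and −1.07 to the L3/4 control. The ISC and fused arrays differed by less than the scanner error, at a log2 ratio of −0.09, and the controls by 0.25.

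TPM1, alpha-tropomyosin, showed a different profile with high signal on 1 array. Its brightest probe had a level of 1.98 at the ISC level, against 2.72 in the L3/4 control, and it was 2.08 at the fused levels, against 4.81 in the L2/3-L4/5 control. The last array stood far above the other 3, and all 7 probes put the arrays in the same order. The log2 ratio at the ISC level was −0.74, with the 7 probes between −0.93 and −0.72. At the fused levels it was −2.73, with the probes between −2.86 and −2.72, and to the L3/4 control it was −0.64. The probes of 1 gene share the sample and may overlap in sequence, so their closeness shows the precision of the array and not that of the tissue.

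DES, desmin, differed most between the controls. Its brighter probe had a level of −2.23 at the ISC level, against −2.51 in the L3/4 control, and it was −1.94 at the fused levels, against 2.35 in the L2/3-L4/5 control. DES was thus low on 3 arrays, within 0.57 of each other, and high on 1. The log2 ratio was 0.28 at the ISC level, within the scanner error of 0.29, and −4.29 at the fused levels. The first of these had no settled sign, being −0.17 with normexp and −0.16 as the mean of both probes. The dimmer probe was well above background in the L2/3-L4/5 control alone, at −1.37, and was at least 4.74-fold lower on the fused array.

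**Figure D1:**
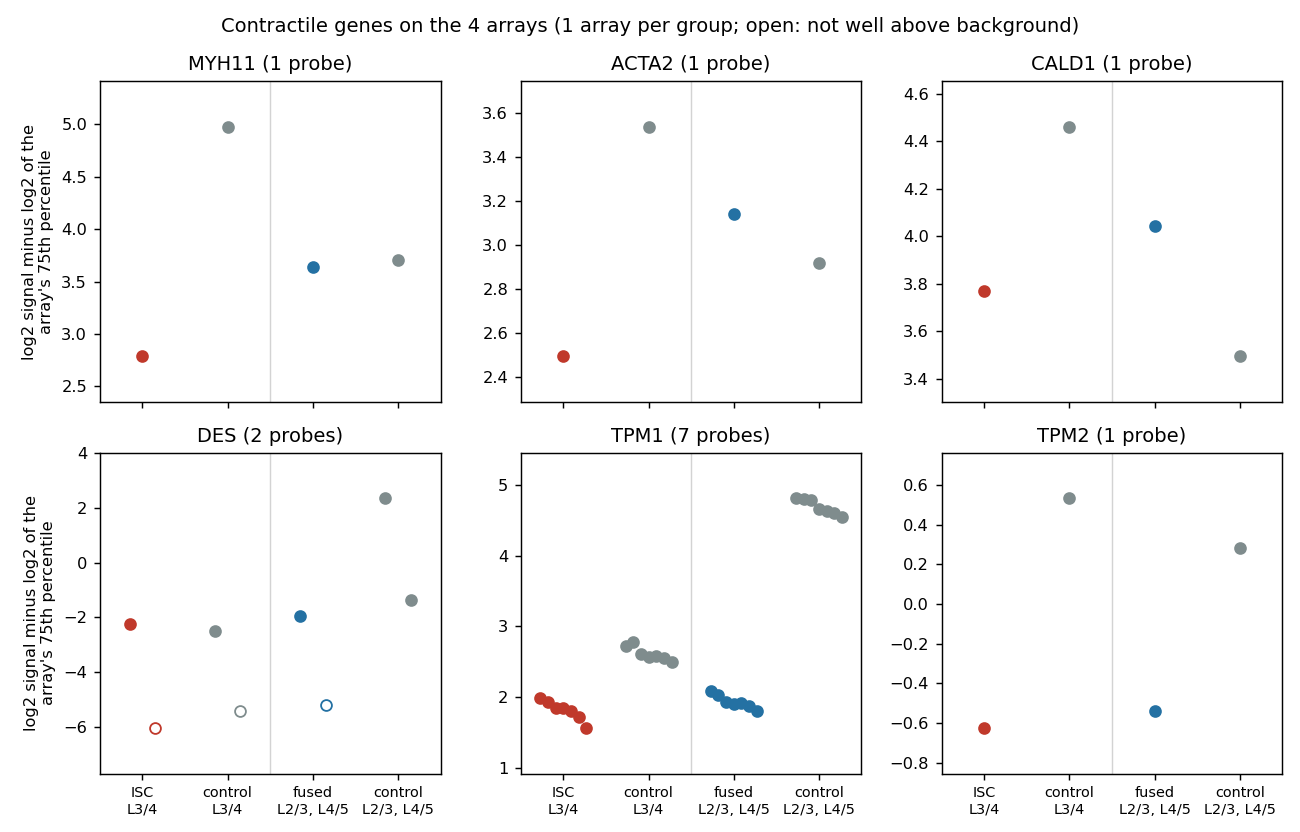
Levels of the 6 genes on the 4 arrays, as log2 signal minus log2 of the array's 75th percentile, with 1 point per probe and open points for spots not well above background. The vertical scale differs between panels. MYH11 and ACTA2 are lowest at the ISC level and highest in the L3/4 control, while DES and TPM1 are highest in the L2/3-L4/5 control.

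With the ISC level set against its matched control, 3 of the 6 genes were at least 2-fold lower (MYH11, ACTA2 and TPM2) and 0 at least 2-fold higher. Among all 13729 measured features 10.5% were that much lower, 9.08% that much higher and 19.6% either. ACTA2 and TPM2 lie near the 2-fold line. With median centring, and less the median of all features, MYH11 was at −2.02, ACTA2 at −0.88 and TPM2 at −0.99. The median log2 ratio of the 6 genes was −0.89, beside −0.17 for all features. MYH11, ACTA2 and CALD1 had a median of −1.05, and DES, TPM1 and TPM2 of −0.74, a difference of −0.30. The 11 measured skeletal muscle markers had a median of −0.26 in the same comparison and ran from −2.34 to 1.25.

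With the fused levels set against their matched control, 2 of the 6 genes were at least 2-fold lower (DES and TPM1) and 0 at least 2-fold higher, beside 9.15% lower, 7.84% higher and 17.0% either way among 13717 features. Here the groups of 3 lay apart. MYH11, ACTA2 and CALD1 ran from −0.07 to 0.55 with a median of 0.23, and DES, TPM1 and TPM2 from −4.29 to −0.82 with a median of −2.73. All 14 measured skeletal muscle markers were at least 2-fold lower as well, with a median of −5.65, and the median of all features was −0.14. Against the L3/4 control the medians of the groups of 3 were −0.42 for MYH11, ACTA2 and CALD1 and −0.64 for DES, TPM1 and TPM2. The distance between them was then 0.23, beside 2.96 against the matched control.

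The comparison of the controls, L3/4 over L2/3 and L4/5, again set DES and TPM1 far below MYH11, ACTA2 and CALD1. TPM2 lay nearer to ACTA2 than to TPM1. MYH11, ACTA2 and CALD1 were higher in the L3/4 control, by 1.27, 0.62 and 0.97, whereas DES was at −4.85 and TPM1 at −2.09, with TPM2 at 0.25. MYH11 was the only one of the 6 that was at least 2-fold higher, beside 8.39% of 13137 features, and DES and TPM1 were at least 2-fold lower, beside 9.19%; 17.6% of features passed either way. The 12 measured skeletal muscle markers were all past 2-fold and lower in the L3/4 control, with a median of −5.02. This comparison shares an array with each of the other comparisons, so its values are no separate evidence for either of them.

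**Figure D2:**
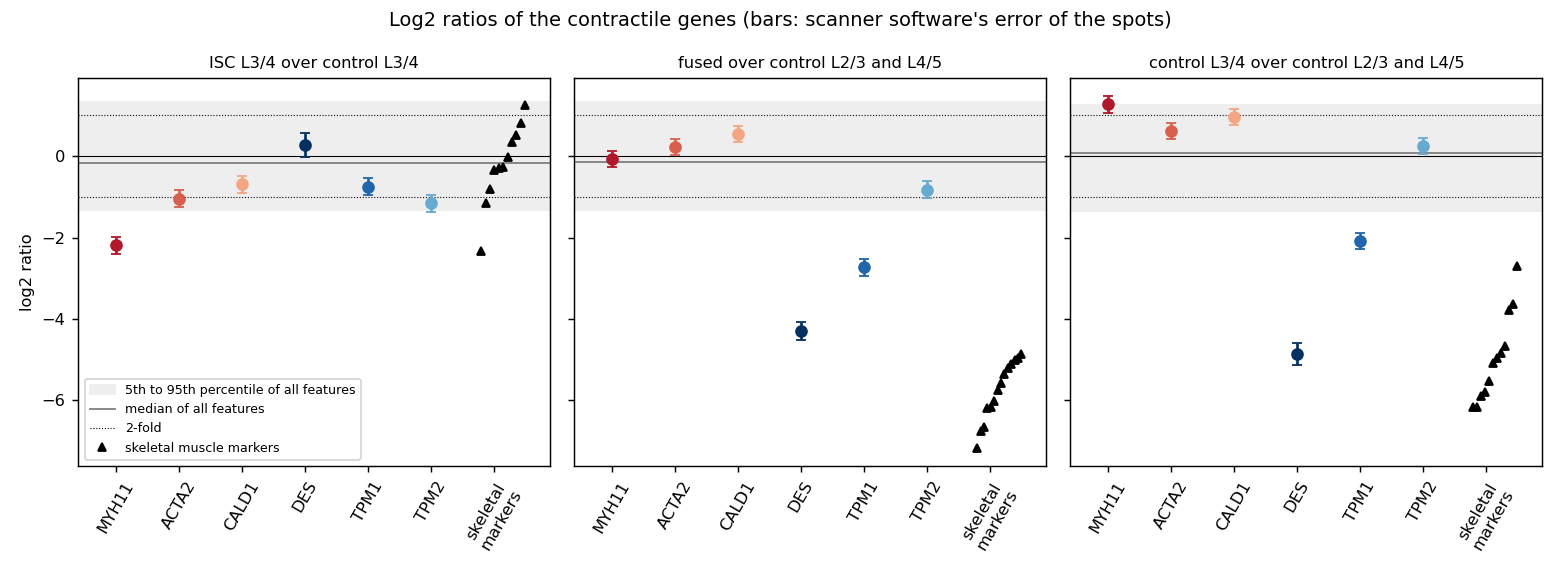
Log2 ratios of the 6 genes in the 3 comparisons, with bars for the scanner software's error, and triangles for the skeletal muscle markers measured on both arrays. The grey band spans the 5th to 95th percentile of all features. MYH11 lies below the band at the ISC level, and DES and TPM1 lie below it, towards the skeletal muscle markers, wherever the L2/3-L4/5 control is the denominator.

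The array of the L2/3-L4/5 control stood apart in skeletal muscle transcripts. Of 18 skeletal muscle markers on the array 16 were well above background there, and their summed level was 964 times the array's 75th percentile. On the ISC array 15 passed that mark with a summed level of 31.2, in the L3/4 control 12 with 41.7, and at the fused levels 14 with 17.9. TNNC2, a troponin gene, weighs most in the sum of the L2/3-L4/5 control, with a level of 9.26. The median level of the 18 markers was 3.03 in that control. It was −2.03 on the ISC array, −2.13 in the L3/4 control and −2.77 at the fused levels. CACNA1S, the calcium channel of skeletal muscle, was not well above background on any of the 4 arrays, and TNNC1, slow troponin C, only in the L2/3-L4/5 control. DES and TPM1 were high on that same array. Against the L3/4 control, which replaces the whole array, the fused levels were at 0.57 for DES and −0.64 for TPM1. TPM2, which skeletal muscle expresses too, differed by 0.25 between the controls. The part of skeletal muscle RNA in these ratios was not tested.

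**Figure D3:**
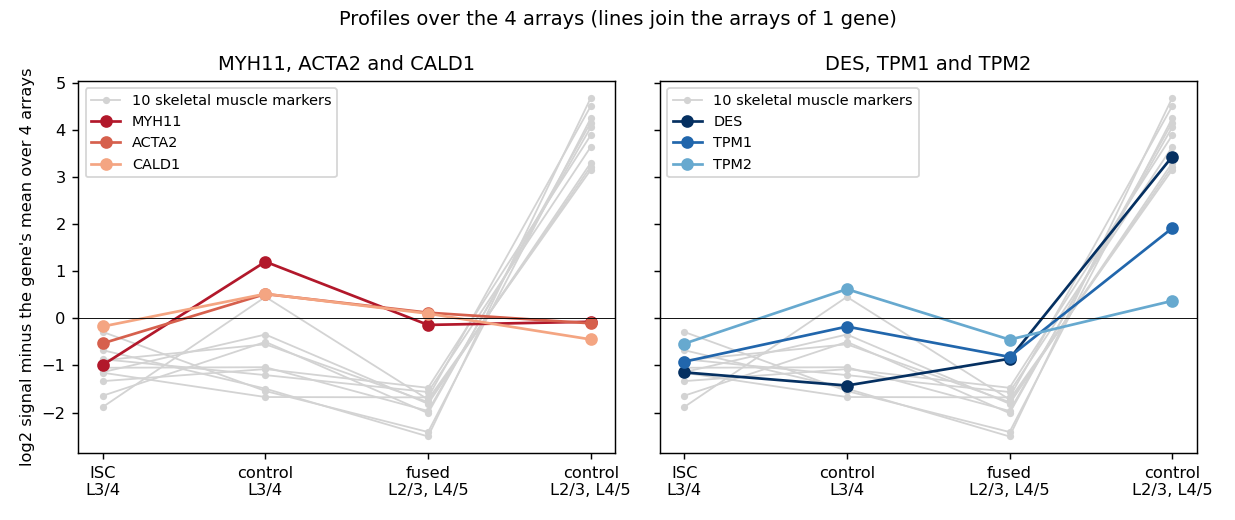
Log2 signal of each gene minus its mean over the 4 arrays, for MYH11, ACTA2 and CALD1 (left) and DES, TPM1 and TPM2 (right), with the 10 skeletal muscle markers well above background on all 4 arrays in grey. DES and TPM1 share the peak of the markers in the L2/3-L4/5 control, while MYH11, ACTA2, CALD1 and TPM2 peak in the L3/4 control.

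Each surgical array was also set against the control that is not its anatomical match. Over the L2/3-L4/5 control the ISC array had 2 genes past 2-fold, DES at −4.58 and TPM1 at −2.83, both lower, beside 5.03% of 14114 features lower, 3.54% higher and 8.57% either way. All 14 measured skeletal muscle markers were lower there too, by a median of −5.06. Over the L3/4 control the fused array had 2 genes past 2-fold, MYH11 and TPM2, both lower, beside 13.0% of 13352 features lower, 11.2% higher and 24.2% either way. DES and TPM1 were thus past 2-fold in the comparisons that hold the L2/3-L4/5 control, and MYH11 in the 3 that hold the L3/4 control.

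The ISC and fused arrays were also set against each other. All 6 genes had a log2 ratio below 0 (ISC over fused), from −0.85 for MYH11 and −0.65 for ACTA2 to −0.10 for TPM1 and −0.09 for TPM2, with a median of −0.28. None was 2-fold apart, beside 7.76% of 14564 features lower, 6.99% higher and 14.7% either way, and the median of all features was 0.05. CALD1 was at −0.27 and DES at −0.29. MYH11, ACTA2, CALD1 and DES were apart by more than the scanner error, and TPM1 and TPM2 were not. That error is the smaller yardstick here. The SD of ratios over the probes of a gene had a median of 0.13 and a 90th percentile of 0.45 in this comparison. The ratios of CALD1 and DES lie within the latter.

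The ISC array was the lowest of the 4 for MYH11, ACTA2, TPM1 and TPM2, that is for 4 of the 6 genes, and 22.6% of the 12741 features measured on all arrays were lowest there. For TPM1 and TPM2 it lay below the fused array by less than the scanner error. The L3/4 control was the highest for MYH11, ACTA2, CALD1 and TPM2, and 38.5% of all features were highest there. DES was lowest in that control on its brighter probe, below the ISC array by less than the scanner error. Its dimmer probe, not well above background on either array, was lowest on the ISC array.

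By distance between profiles over the 4 arrays, among 885 named genes well above background on all of them, the genes nearest to MYH11 included SLC22A3, an organic cation transporter, SOX17, an endothelial transcription factor, LIF, a cytokine, and TNFSF13B, a B cell survival factor. Their distances ran from 0.26 to 0.48 on the log2 scale. ACTA2 came at rank 40 with a distance of 0.87, TPM2 at rank 51 and CALD1 at rank 134, while TPM1 and DES came at ranks 773 and 871. The genes nearest to TPM1 were ASB5, the phosphorylase kinase subunit genes PHKG1 and PHKA1, CACNB1 (a calcium channel subunit) and PTH1R (the parathyroid hormone receptor), at distances from 0.40 to 0.76. By distance to TPM1, TPM2 came at rank 75 and DES at rank 142, with distances of 1.81 and 1.98. ACTA2, MYH11 and CALD1 came at ranks 475, 574 and 699. The distance counts the size of the differences between arrays as well as their pattern. A likeness over 4 arrays is a description.

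Of 69 listed regulators of smooth muscle contraction, 36 could be named on the array and 32 were measured on the ISC array and on the L3/4 control. Of these, 4 were lower and 4 higher by 2-fold or more on the ISC array, beside 10.5% and 9.08% of all features, and their median was −0.11, beside −0.17. These shares are near the background, so the counts are no result about regulators, and the genes are given for their values. PRKG1, the cGMP-dependent kinase that mediates relaxation by nitric oxide, had a level of −1.01 at the ISC level, against 1.27 in the L3/4 control. Its log2 ratio was −2.28, with its 2 probes at −2.28 and −2.09, but −0.22 to the other control. PRKG1 was also low at the fused levels, at −1.08, against −0.79 in the L2/3-L4/5 control. The L3/4 control was thus the array that stood apart for PRKG1. CACNB3, a calcium channel subunit, was at −1.29 on 1 measured probe of 2, and the cation channel gene TRPC1 at −1.15, with 1 of its 4 probes as high as 0.28. PRKCB, a protein kinase C, was at −2.58 on 1 measured probe of 6. None of these 4 genes was 2-fold lower against the other control, where TRPC1 was at −0.21, CACNB3 at −0.57 and PRKCB at 0.49.

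The 4 higher regulators at the ISC level were CAMK2D, a calmodulin-dependent kinase, at 2.12, KCNMA1, the large-conductance potassium channel that relaxes smooth muscle, at 1.51, BDKRB1, a kinin receptor, at 1.37 and TGFB2, a ligand that induces myofibroblasts, at 1.27. The 3 probes of CAMK2D lay between 2.06 and 2.79 and the 2 of KCNMA1 at 1.45 and 1.51. Against the other control CAMK2D was at −0.46, KCNMA1 at 0.18 and TGFB2 at 0.22, while BDKRB1 stayed higher, by 1.23. TGFB2 was thus higher and ACTA2 lower at the ISC level than in the matched control. CACNA1C, the calcium channel of smooth muscle, named after its value was seen, was well above background in the L3/4 control alone, and had a signal at least 2.17-fold lower on the ISC array. The regulators of highest signal, CALM2 (calmodulin) and EDN1 (endothelin-1), were at −0.20 and −0.21.

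At the fused levels 30 regulators were measured, of which 0 were lower and 2 higher by 2-fold or more, beside 9.15% and 7.84% of all features, with a median of 0.01. The share of higher ones is near the background. PRKCB was at 3.52 and PTGER3, a prostaglandin E receptor, at 1.68, each on 1 measured probe. BDKRB1 was not well above background there and was at least 4.33-fold lower. Granulocyte markers were higher on the same array, all 5 measured ones by at least 2-fold with a median of 5.34, and their part in these ratios was not tested.

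**Figure D4:**
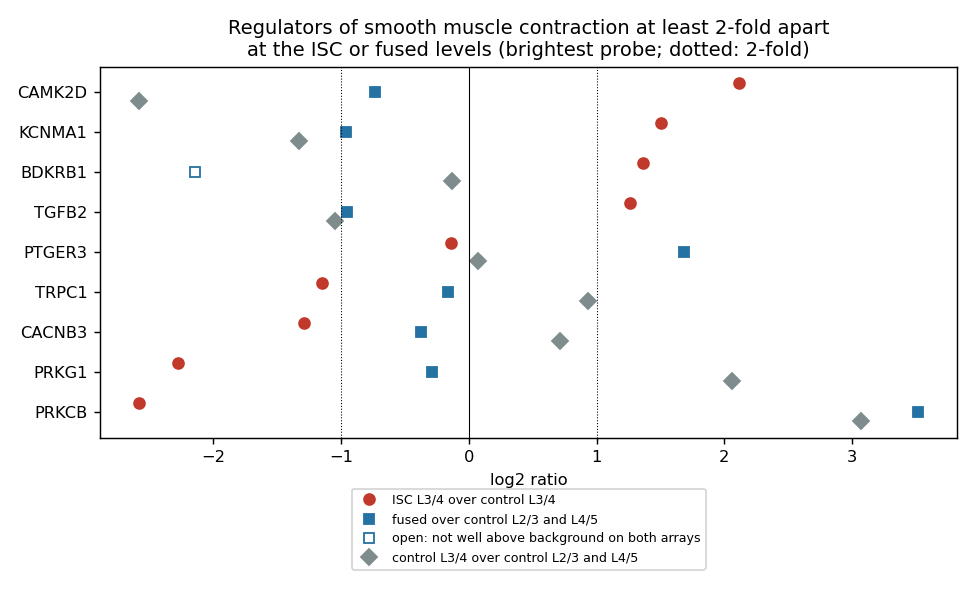
Log2 ratios of the 9 regulators of smooth muscle contraction that were at least 2-fold apart at the ISC level or the fused levels, in the 3 comparisons, with an open square where the gene was not well above background on both arrays. The ratios of all 9 at the ISC level lie on the opposite side of 0 from those of the L3/4 control over the other control. For BDKRB1 and PTGER3 the latter are small, at −0.13 and 0.07. The L3/4 control is the denominator of the first ratio and the numerator of the second, which favours opposite signs.

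Further structural genes of smooth muscle could hardly be followed, since 2 of 32 on the list were named on the array. ACTB, the cytoplasmic beta-actin, was at −0.45 at the ISC level on its brightest probe, but its 3 probes reached up to 1.27 and do not settle a direction. FLNA, filamin A, which crosslinks actin, was at 0.37 at the ISC level and at −0.42 at the fused levels. Probe sequences were not used here, so whether the probes of ACTA2, TPM1 and TPM2 tell their targets from related actins and tropomyosins was not tested.

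Markers of vessels and of blood did not all move the same way. Of 6 endothelial markers measured at the ISC level 2 were at least 2-fold lower and 1 higher, beside 10.5% and 9.08% of all features. The lower ones were SOX17 at −2.57 and KDR, a receptor of vascular endothelial growth factor, at −1.32. Both were dim on the ISC array, at levels of −3.52 and −3.09. THBD, thrombomodulin, was higher, at 1.24, and the list median was −0.40. To the other control SOX17 was at −1.09 and THBD at 0.24, while KDR was not well above background there. The summed level of the 6 endothelial markers was 4.20 at the ISC level, against 3.87 in the L3/4 control. THBD counts towards this sum, and 4 of the 6 markers had a log2 ratio below 0. At the fused levels 5 were measured, with 0 at least 2-fold lower and 2 higher, beside 9.15% and 7.84% of all features. The higher ones were VCAM1 at 2.21 and THBD at 1.03, where MYH11 was at −0.07 and ACTA2 at 0.23. The haemoglobin genes HBA and HBB2 were at −0.89 and −0.80 at the ISC level and at 2.10 and 2.06 at the fused levels. At the ISC level 4 of 5 granulocyte markers were below 0, their median being −0.85, and S100A9, a calcium-binding protein of neutrophils, was at −1.13. Of the pericyte markers 2 of 8 were on the array, and ABCC9, a potassium channel subunit, was at −0.04 at the ISC level. The part of vessel and blood content in the ratios of MYH11 and ACTA2 was not tested.

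Ligament markers were present on every array, with COL1A2, a type I collagen chain, between 7.80 and 8.79 and OGN, osteoglycin, between 7.72 and 8.32. TNMD, which encodes tenomodulin and marks tendon cells, passed the background mark on 3 arrays and not at the fused levels. Of the 8 ligament markers measured at the ISC level 6 were below 0 and 2 above it, with a median of −0.09, OGN being at −0.60 and COL1A2 at 0.89. BGN alone was past 2-fold, at 1.27, but at 0.15 to the other control. At the fused levels 3 of 7 were at least 2-fold lower and 0 higher, beside 9.15% and 7.84% of all features. These were BGN at −2.07, LUM at −1.36 and CNMD at −1.01, and the list median was −0.73.

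**Figure D5:**
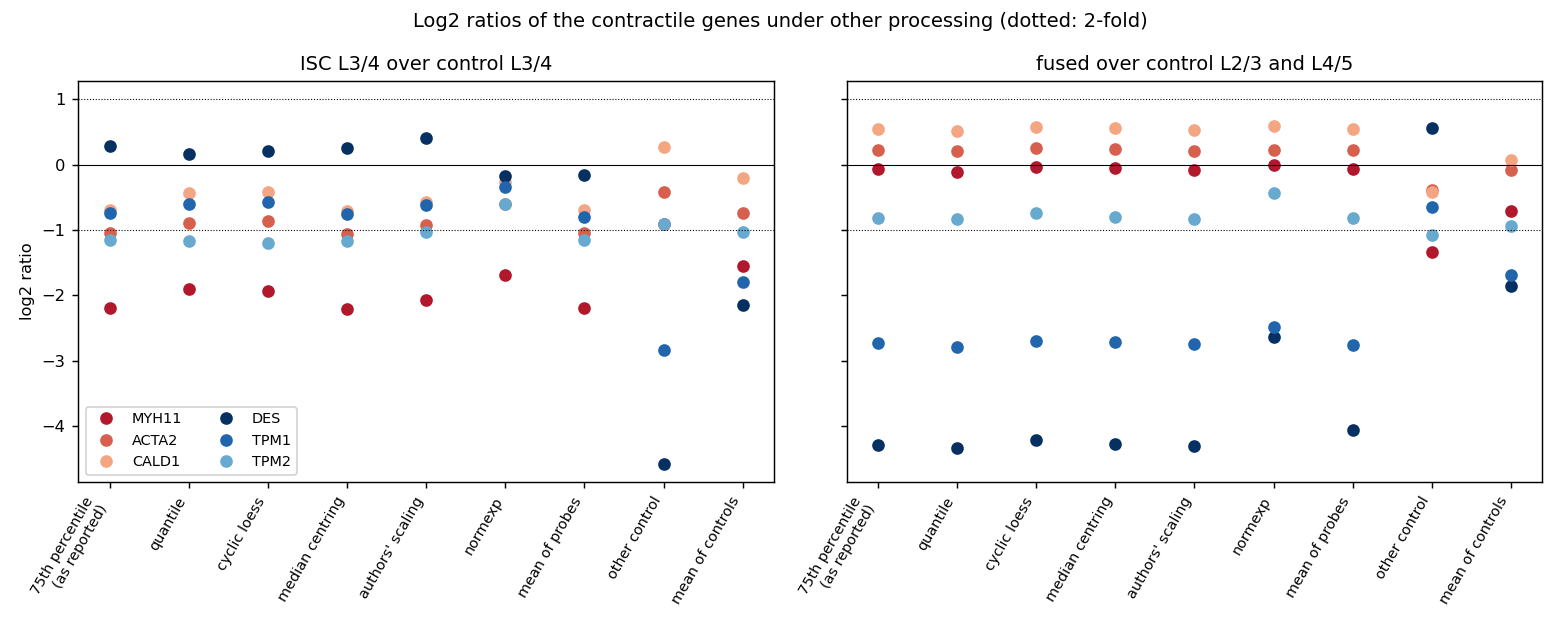
Log2 ratios of the 6 genes under other processing, for the ISC level (left) and the fused levels (right), each point being 1 gene under 1 setting. Quantile normalization and cyclic loess bring CALD1 at the ISC level to −0.43 and −0.42 and MYH11 to −1.91 and −1.94, normexp draws most points towards 0, and the other control array moves DES, TPM1 and MYH11 most.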

How the data were processed

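Total RNA of 4 samples was labelled with Cy3, per the labels' protocols. The submitters' processing notes name Agilent Feature Extraction 12.0.3 as the software. The deposited intensities are linear, and per the file headers the processed signal had background and spatial trend removed, with marks for spots well above background. The array design refers to oryCun2, so no coordinates are given.

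Processed signals were put on a log2 scale relative to the 75th percentile of their array (93.7 on the ISC array, 53.4 on the L3/4 control, 85.4 on the fused array, 72.7 on the L2/3-L4/5 control). Control spots and 3 to 7 outlier spots per array were left out, and no spot was saturated. Replicate spots had a median SD, on the log2 scale, between 0.116 and 0.148, a spread within arrays. RefSeq accessions without versions were named through a RefSeq table of mOryCun1.1, which named 8.70% of probes. Where a gene had several probes, the brightest one stands for it. Features are named genes or else accessions, 22904 in all, and were measured when well above background on both arrays. A difference of at least 2-fold is a fixed size and not a test, and the ratio step was tested on simulated data. A bound takes, on the dim array, whichever is larger of the probe's signal and the dimmest signal called well above background.

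The 6 genes and the gene lists were chosen with earlier results of these data known. Named besides the 6 are listed genes 2-fold apart at the ISC or fused levels, the 2 brightest of each list, and the 5 genes nearest to MYH11 and to TPM1 by Euclidean distance of centred profiles, with some left out for length and a gene near MYH11 not reported here. Alternatives were quantile normalization, cyclic loess, median centring, the authors' deposited table (intensity times 1 factor per array, how chosen not given in the sources used here), normexp with an offset of 50 (limma 3.58.1, on median spot signals, as mean signals were not used here), other probe rules, filters, controls and fold sizes. Gene tables used Python 3.11.15 and pandas 2.3.3.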

Additional observations from a re-analysis of the deposited data

Results flagged for a closer look

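For 3 of the 6 genes the ratio at the ISC level and the ratio at the fused levels, each to its matched control, had opposite signs, with 1 array per group. The difference was not tested. Of all 12741 features measured in both comparisons 47.1% had opposite signs, so such a difference is common on these arrays. The difference of the log2 ratios, ISC level minus fused levels, was −1.27 for ACTA2 (−1.05 and 0.23), −1.24 for CALD1 (−0.69 and 0.55) and 4.56 for DES (0.28 and −4.29). With the controls exchanged ACTA2 had the same sign at both levels, −0.42 at the ISC level and −0.40 at the fused levels, and CALD1 and DES turned in both.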

How the results depend on the processing

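With the matched control kept, 5 of 9 other settings could change the value of a gene with 1 probe, since probe rules and filters leave it as it is. Under these 5, MYH11 was past 2-fold and lower at the ISC level in 5 (−2.21 to −1.69), TPM2 in 4 (−1.20 to −0.61) and ACTA2 in 1 (−1.06 to −0.60). CALD1, at −0.69, was at −0.43 with quantile normalization, −0.42 with cyclic loess and −0.27 with normexp. At the fused levels DES and TPM1 were past 2-fold and lower under all 7 settings that changed their values (−4.34 to −2.63 and −2.79 to −2.49). With quantile normalization, cyclic loess and the authors' scaling, MYH11 and TPM2 stayed past 2-fold at the ISC level, and ACTA2 did not. The count of genes past 2-fold at the ISC level was 3, beside 19.6% of all features. It was 1 with normexp (3.81% of features), 5 at 1.5-fold (44.4%) and 1 at 3-fold (5.83%). Between the controls it was 3, and 5 at 1.5-fold (39.0% of features). The median of the 6 genes at the ISC level was −0.47 with normexp and −1.29 against the mean of the controls, and at the fused levels −0.21 and −0.82. The median of MYH11, ACTA2 and CALD1 minus that of DES, TPM1 and TPM2 was −0.30 at the ISC level, but 2.41 against the other control and 1.05 against the mean of the controls. At the fused levels it was 2.96, but 2.72 with normexp, 0.23 against the other control and 1.60 against the mean of the controls. DES at the fused levels turned to 0.57 against the other control. The authors' scaling moved the median of all features at the ISC level to −0.04 from −0.17, and 58.9% of calls were then higher, beside 46.4%, and 66.3% with normexp. No paired analysis was possible because each group has 1 array. Why the values moved was not tested, beyond the change of array in the settings on controls.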
